A study of Mus musculus with 13 samples.

Results

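Zscan4a, Zscan4b, Zscan4c, Zscan4d, Zscan4e, Zscan4f, Tcstv1, Tcstv3 and Zfp352 are genes transcribed in the mouse embryo around its first cleavage and, in culture, in rare embryonic stem (ES) cells that pass through a 2C-like state. The 9 genes were taken by symbol. Of the 24421 genes in the count tables, 8 of the 9 have an entry (Zscan4e has none), and 6 had at least 1 read and were among the 20044 genes tested, namely the other 5 Zscan4 genes and Zfp352. Tcstv1 and Tcstv3 had 0 reads in all 4 libraries.

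The RNA-seq libraries came from F1-2.1 cells, a female mouse ES line from a CAST/Ei x 129/Sv/Jae cross, that carry a doxycycline (dox)-inducible (Tet-on) CTCF-3xFLAG transgene co-expressed with EGFP. In the S224E form of this architectural protein a serine is replaced by glutamate, which mimics phosphorylation. Both groups carried the transgene and kept endogenous CTCF, and were grown with LIF on γ-irradiated mouse embryonic fibroblast feeders. The S224E+dox group (n = 2) received 1 μg/mL dox for 6 days and the S224E−dox group (n = 2) received none. All RNA came from 1 clone, A2. Libraries with dox but without the S224E transgene were not analysed here, so an effect of dox and an effect of S224E cannot be told apart. The libraries held 22899107 and 23136603 counted reads with dox and 30206085 and 24620964 without. All 12 ES cell markers, Pou5f1 and Nanog among them, had reads in every library, and their summed level was 7396 and 8176 CPM (reads scaled to library size) with dox and 6715 and 6974 CPM without.

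The 2C-like state is a transient condition in which an ES cell switches on transcripts of the cleaving embryo, many of them encoded by clustered gene families or driven by retroviral promoters. The transcription factor Dux activates many of these genes, Dppa2 and Dppa4 act upstream of it, and chromatin repressors hold the state in check. Zscan4 proteins, which carry a SCAN domain and zinc fingers, are known for their role in telomere lengthening and genome stability in ES cells. Zfp352 encodes another zinc finger protein of the early embryo, and Tcstv1 and Tcstv3 belong to a small family with the same stage-specific expression.

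The Zscan4 genes lie in 1 cluster on mouse chromosome 7, spread over 608 kb in the mm9 build, with gaps of 87.2 to 151 kb between neighbours, 2 genes on the plus strand and 4 on the minus strand. In mm9 Zscan4a spans chr7:11379590-11384414, Zscan4b chr7:11486089-11490399, Zscan4c chr7:11591094-11595896, Zscan4d chr7:11746992-11751497, Zscan4e chr7:11891727-11896031 (from GENCODE M1) and Zscan4f chr7:11983264-11987667. Zfp352 stands alone on chromosome 4, at chr4:89885511-89892378 on the plus strand. No other annotated gene of GENCODE M1 overlaps any of these 7 genes. The tables class Zscan4a as a pseudogene. Tcstv1 and Tcstv3 were placed on unassigned sequence (chrUn_random), at 37343 to 38736 and 3053 to 4452.

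The promoters are shown because they bear on which genes share sequence at their starts. RefSeq promoter windows of GRCm38.p6 were found for 5 of the 9 genes. Among the 4 Zscan4 promoters, identity ran from 95.7% to 99.3% over 266 to 300 aligned bases. The 120 bases before the annotated start are printed 5′ to 3′ on the strand of the gene, with the motif TATAAA in capitals. In GRCm38.p6 they lie at chr7:10905051-10905170 (minus strand, Zscan4b), chr7:11397795-11397914 (plus, Zscan4f), chr7:11005625-11005744 (plus, Zscan4c) and chr7:11166149-11166268 (minus, Zscan4d).
Zscan4b: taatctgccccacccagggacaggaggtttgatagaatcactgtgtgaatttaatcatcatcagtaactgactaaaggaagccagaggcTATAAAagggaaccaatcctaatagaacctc
Zscan4f: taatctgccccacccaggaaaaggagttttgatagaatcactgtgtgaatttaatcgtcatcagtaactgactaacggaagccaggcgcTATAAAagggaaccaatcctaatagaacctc
Zscan4c: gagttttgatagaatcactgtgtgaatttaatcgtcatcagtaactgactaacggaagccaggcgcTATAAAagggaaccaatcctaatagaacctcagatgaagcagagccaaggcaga
Zscan4d: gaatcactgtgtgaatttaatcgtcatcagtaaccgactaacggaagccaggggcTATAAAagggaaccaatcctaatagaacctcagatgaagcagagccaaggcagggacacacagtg

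TATAAA, the common form of the TATA box, was present once in each of the 4 windows, always on the strand of the gene, and began 31 bases before the annotated start of Zscan4b and Zscan4f, 54 before that of Zscan4c and 65 before that of Zscan4d. Around this motif the letters of the 4 promoters are nearly the same, with the annotated start at another distance from it. Searched on both strands in the 250 bases before each start, TATAAA was found in 12.4% of the 32851 promoter windows in the table. The Zfp352 promoter aligned with those of Zscan4 over at most 14 bases and holds no TATAAA, the only form of the TATA box searched. It is built of a short tandem unit, and the 250 bases before its start (chr4:90218570-90218819 in GRCm38.p6, plus strand) are printed with TAATCC in capitals.
Zfp352: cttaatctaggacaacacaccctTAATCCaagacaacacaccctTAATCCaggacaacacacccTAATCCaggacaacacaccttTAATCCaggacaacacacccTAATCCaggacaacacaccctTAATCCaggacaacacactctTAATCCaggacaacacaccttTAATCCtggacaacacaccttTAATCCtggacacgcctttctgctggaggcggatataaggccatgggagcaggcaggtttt
TAATCC, the core bound by homeodomain proteins of the Otx and Obox type, occurs 9 times there. It was searched, on both strands and with no overlap with TATAAA, after the repeat had been seen. Of all windows of the same length, 6.25% hold TAATCC at least once and 1 of 32851 holds as many as 9, namely that of Zfp352. A match describes the letters only, and no binding was measured at these sites here.

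Shared sequence in the exons limits what the counts can hold, because only reads with a unique position were counted. Of all 50-base windows in the mm9 exons, the length of 1 sequenced read, 91.0% occurred once in the genome for Zfp352, but 50.5% for Zscan4d, 15.4% for Zscan4c, 7.23% for Zscan4b, 7.17% for Zscan4e and 3.06% for Zscan4f. For Zscan4a, which has no exon model in GENCODE M1, the share was 44.5% over the gene body. Windows of the Zscan4 genes were shared with another Zscan4 gene, from 47.2% of all exonic windows for Zscan4d to 92.8% for Zscan4e, and many also occurred outside these genes, from 46.6% for Zscan4d to 93.8% for Zscan4f. A Zscan4 count therefore leaves out reads of that gene without a unique position, and how the reads divide among copies is uncertain. Whether reads of another copy were counted for a gene was not tested, so a count is not a strict lower bound. The reads were from paired ends and from CAST/Ei x 129/Sv/Jae cells, while mm9 is from another strain, so these shares are a guide to the real losses and not a measure of them.

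All 6 genes with reads were higher with dox than without in the mean, by 2.57- to 4.45-fold in CPM, and each was higher in both replicates when the +dox library was set against the −dox library of the same number. Of all 20044 genes tested, 6109 were higher in both replicates in this way. None passed the study's threshold, an adjusted p under 0.01, in edgeR's quasi-likelihood test, at which 0.0798% of all genes tested rose (16 of 20044) and 0.519% fell (104). At an unadjusted p under 0.05, 4 of the 6 were higher, against 8.48% of all genes. In 5 of the 6 both +dox libraries lay above both −dox libraries, against 23.3% of all genes. These shares are no test of the group, because the genes were chosen with earlier results of these data known. The Zscan4 genes also share sequence, so their counts are not independent. The median log2 fold change of the 6 was 1.84, beside 0.01 over all genes tested. In bulk RNA a larger share of 2C-like cells and more RNA in each such cell cannot be told apart.

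Zfp352, the best counted of the 6 and the one least affected by copies, had 31 and 42 reads with dox and 14 and 19 without. These are levels of 1.38 and 1.84 CPM against 0.458 and 0.757 CPM, and the groups did not overlap. The mean was 1.61 ± 0.327 CPM with dox and 0.608 ± 0.211 CPM without (SD, n = 2 each), a log2 fold change of 1.41 (SE 0.42, edgeR adjusted p = 0.0938). DESeq2 gave an adjusted p of 0.255 for Zfp352, with 2.71% of the 13826 genes that received one passing 0.01 in either direction. Within replicate 1 the +dox level was 3.004 times the −dox level (95% counting interval 1.55 to 6.11), and within replicate 2 it was 2.43 times (1.38 to 4.42).

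**Figure D1:**
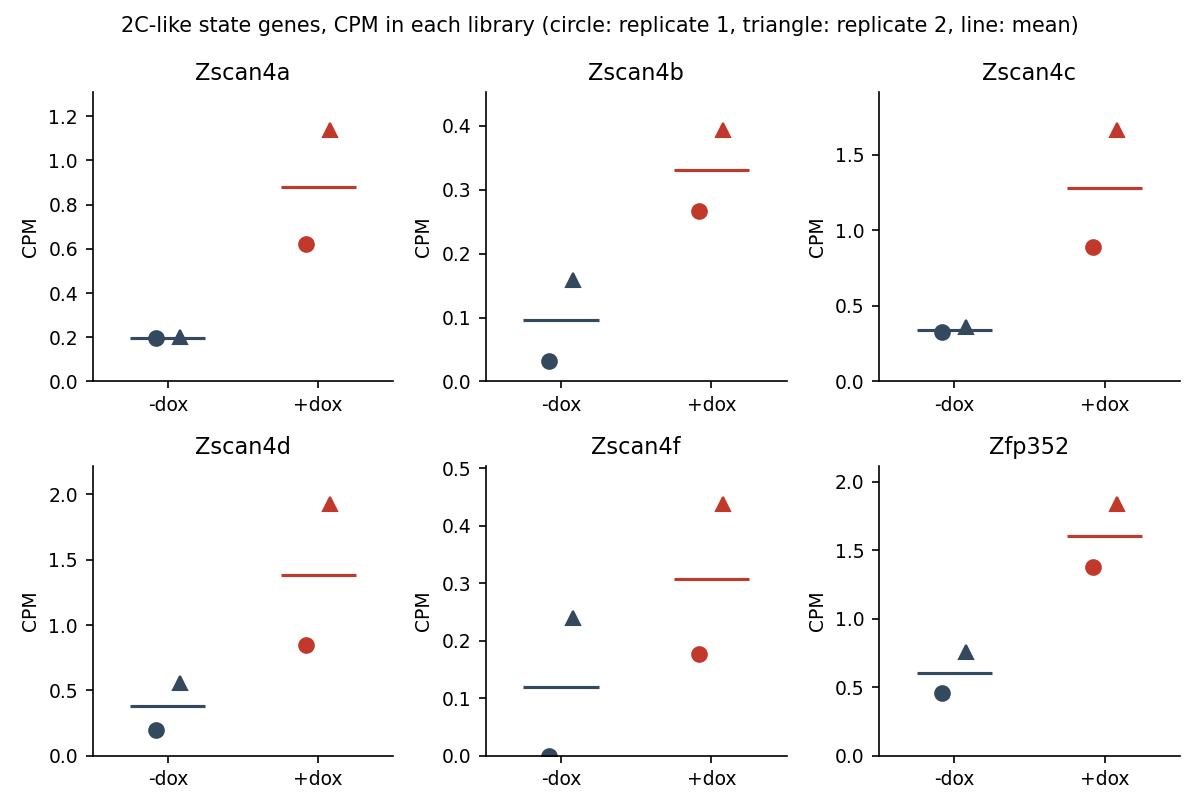
CPM of the 6 genes with reads in each library, with −dox libraries on the left of each panel, +dox libraries on the right, circles for replicate 1, triangles for replicate 2 and a line at the group mean. In 5 panels both +dox points lie above both −dox points, and in the panel of Zscan4f 1 −dox point (0.239 CPM) lies above 1 +dox point (0.178 CPM).

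Zscan4c, the copy studied most in ES cells, had 20 and 38 reads with dox and 10 and 9 without. Its levels were 0.888 and 1.66 CPM with dox and 0.327 and 0.359 CPM without, so the groups did not overlap and the +dox libraries lay further apart than the −dox libraries. The log2 fold change was 1.89 (SE 0.50, edgeR adjusted p = 0.0666). Within replicates the ratio was 2.71 (1.21 to 6.49) and 4.64 (2.20 to 10.9).

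Zscan4d, which has the largest share of unique exonic sequence in the cluster, had 19 and 44 reads with dox and 6 and 14 without. The levels were 0.844 and 1.93 CPM against 0.196 and 0.558 CPM, again without overlap. The log2 fold change was 1.90 (SE 0.57, edgeR adjusted p = 0.0996), and the ratio within replicates was 4.30 (1.65 to 13.1) and 3.45 (1.86 to 6.82). In both groups the second library was the higher one.

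Zscan4a had 14 and 26 reads with dox and 6 and 5 without, or 0.622 and 1.14 CPM against 0.196 and 0.199 CPM. It had the largest fitted change of the 6 genes, a log2 fold change of 2.13 (SE 0.59, edgeR adjusted p = 0.0776). The ratio was 3.17 (1.14 to 10.1) in replicate 1 and 5.71 (2.16 to 19.1) in replicate 2. The −dox libraries of this gene were nearly equal and the +dox libraries were further apart.

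Zscan4b and Zscan4f, the counted copies with the least unique sequence, had the fewest reads. Zscan4b had 6 and 9 reads with dox and 1 and 4 without, with a log2 fold change of 1.80 (SE 0.93, edgeR adjusted p = 0.346). Its ratio was 8.14 in replicate 1, where the counting interval ran from 0.988 to 374, and 2.47 (0.690 to 10.99) in replicate 2, and both intervals include 1. Zscan4f had 4 and 10 reads with dox and 0 and 6 without, with a log2 fold change of 1.44 (SE 1.09, edgeR adjusted p = 0.554). The count of 0 gives no ratio in replicate 1, where the lower counting limit was 0.896, and the ratio in replicate 2 was 1.83 (0.603 to 6.13). A difference was thus not detectable for these copies at this depth, where 3 reads, the limit that a count of 0 allows, correspond to 0.0982 to 0.133 CPM.

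With 1 library, the first +dox replicate, left out, the fitted log2 fold change in edgeR was 2.50 for Zscan4a, 2.27 for Zscan4c and 2.38 for Zscan4d. When any other library was left out, all 6 genes kept a positive log2 fold change. These fits leave 1 library in a group, which is assumed to vary like the others. Without either −dox library the test called no gene of the whole set. Whether a gene passed in such a fit is thus not read as a result about it. DESeq2 gave no adjusted p for the 5 Zscan4 genes, whose counts fell below its independent filter, and at an unadjusted p under 0.05 it had 4 of the 6 higher, against 6.24% of all genes.

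Summed over the 5 counted copies, which lessens the uncertainty about how reads divide among them, Zscan4 had 63 and 127 reads with dox and 23 and 38 without. The sum was 2.80 and 5.56 CPM against 0.753 and 1.51 CPM, a mean of 4.18 ± 1.95 CPM against 1.13 ± 0.538 CPM (SD, n = 2), or 3.69-fold. Within replicates the ratio was 3.72 (95% counting interval 2.27 to 6.28) and 3.67 (2.54 to 5.43). The second library held 1.99 times the first with dox and 2.01 times without, so the libraries of a group differed by a factor that the ratio within replicates did not show. The labels do not say that replicate numbers mark cultures grown side by side.

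**Figure D2:**
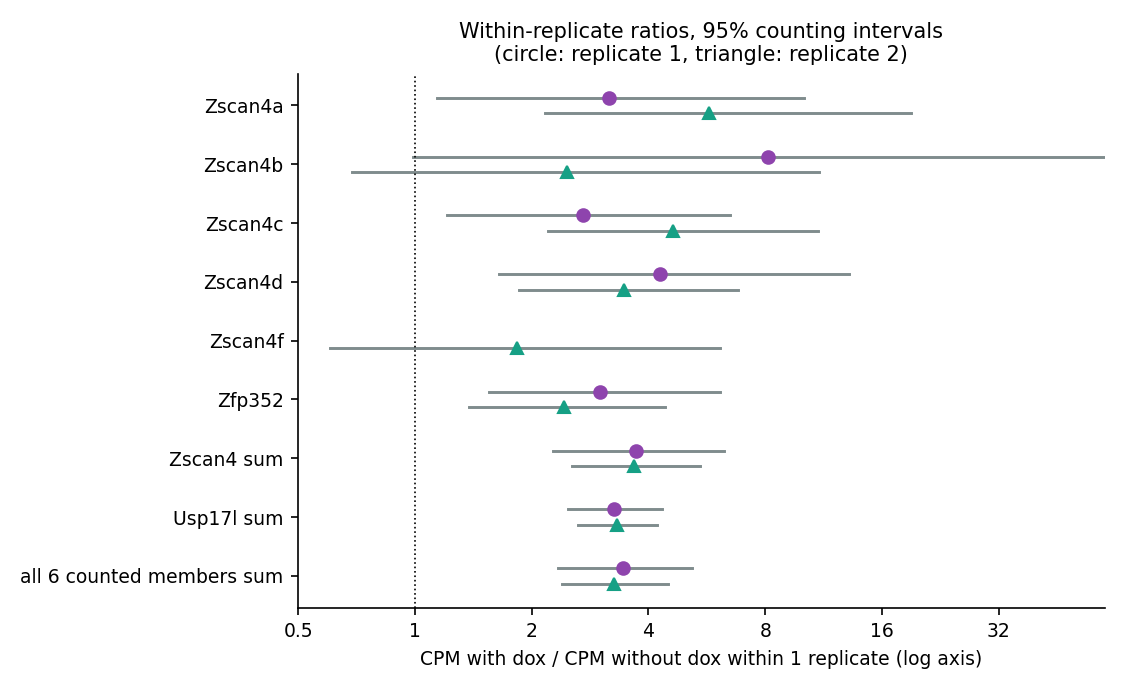
Ratio of the +dox to the −dox level within replicate 1 (circles) and replicate 2 (triangles) on a log axis, with 95% counting intervals as lines and a dotted line at 1, for each gene and for sums over genes. The sums over Zscan4 lie at 3.72 and 3.67 with intervals above 1, Zscan4f has no point for replicate 1, and the interval of Zscan4b in replicate 1 runs past the axis, to 374.

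Per length, the level with dox was highest for Zfp352 (0.712 CPM per kb of exon), followed by Zscan4d (0.698), Zscan4c (0.562), Zscan4a (0.391), Zscan4b (0.189) and Zscan4f (0.169). Without dox the levels were 0.269 CPM per kb for Zfp352, 0.190 for Zscan4d, 0.151 for Zscan4c, 0.0878 for Zscan4a, 0.0656 for Zscan4f and 0.0550 for Zscan4b. With 2 libraries a group, neighbours in either order overlapped, apart from Zscan4a and Zscan4b with dox (0.276 and 0.505 against 0.152 and 0.225 CPM per kb) and Zscan4c and Zscan4a without dox (0.144 and 0.158 against 0.0872 and 0.0884 CPM per kb). Among the 5 genes with exon models, the order with dox was also the order of the share of unique exonic windows. This is an order of 5 genes that share libraries and, in part, sequence.

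**Figure D3:**
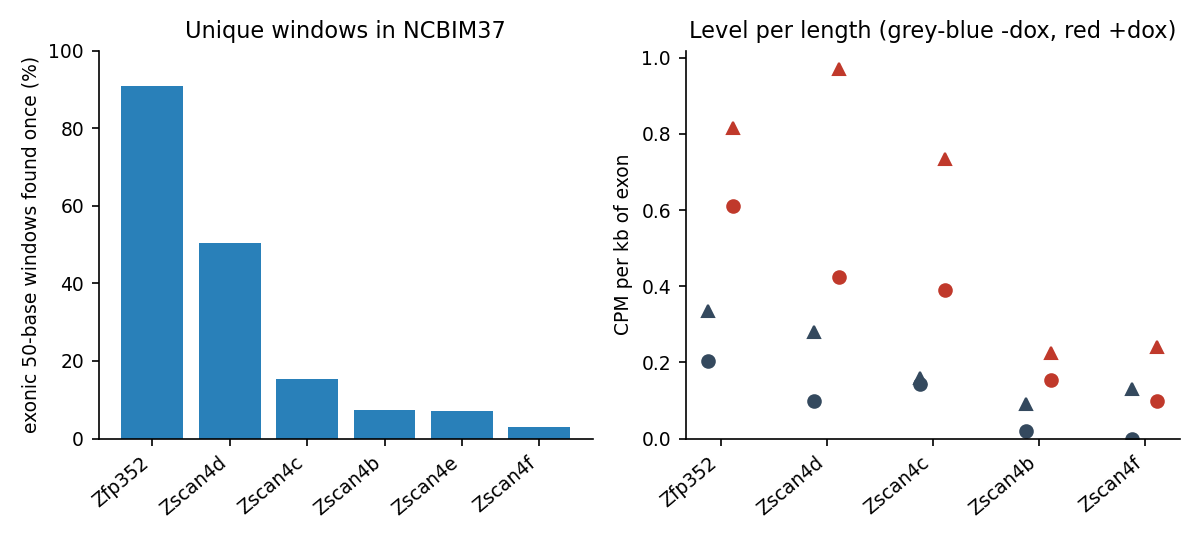
Left, bars give the percent of exonic 50-base windows found once in NCBIM37 (mm9), from 91.0% for Zfp352 to 3.06% for Zscan4f. Right, points give CPM per kb of exon in each library (dark −dox, red +dox, circles replicate 1, triangles replicate 2), for the counted genes with exon models in the same order. Zscan4a, with no exon model, is in neither panel, and Zscan4e, with no counts, is on the left only.

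Tcstv1 and Tcstv3, on unassigned sequence, cannot be read as silent. Of the 72 genes in the tables on unassigned or unplaced (random) sequence, 1 had any read, 4933409K07Rik with a single read, so this holds for the kind of sequence and not for these genes alone. The near copies of both families (Zscan4-ps1, Zscan4-ps2, Zscan4-ps3, Tcstv2a, Tcstv2b, Tcstv2c and Tcstv4) were looked for, and 0 of 7 have an entry. Of the members, the values thus speak for Zfp352 and the Zscan4 cluster.

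Other transcripts of the 2C-like state were set beside these genes. Of 61 named, 54 had an entry and 45 had reads, of which 35 had a positive log2 fold change, against 10178 of all 20044 genes. Higher in both replicates were 27 of the 45, against 6109 of all genes. None passed an adjusted p under 0.01 in edgeR or, among the 6 with an adjusted value, in DESeq2. At an unadjusted p under 0.05 in edgeR 11 were higher (0 lower), against 8.48% of all genes higher. Without overlap 23 lay higher (1 lower), against 23.3% of all genes higher. Of the 23 genes that lay higher, 7 had under 20 reads over the 4 libraries. The median log2 fold change of the 45 was 1.08. Among the 23 with at least 20 reads over the 4 libraries, 20 were positive, with a median of 1.22.

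Dux, the activator of the state, had 17 and 8 reads with dox and 4 and 8 without, with a log2 fold change of 1.31 (SE 0.70, edgeR adjusted p = 0.366). In replicate 2 its counts were the same in both groups, at levels of 0.350 CPM with dox and 0.319 CPM without. The groups of Dux thus did not overlap in CPM, but only by this narrow margin. Usp17l genes, which encode a family of deubiquitinating enzymes and are near copies of each other like Zscan4, made up 4 of the 5 genes of this list with the highest mean level, after Pif1. Usp17lb had 43 and 82 reads with dox and 19 and 16 without (log2 fold change 2.12, SE 0.40, edgeR adjusted p = 0.0183). Usp17lc had 57 and 81 against 15 and 31 (1.84, SE 0.41, adjusted p = 0.0362), and Usp17la had 36 and 45 against 17 and 14 (1.67, SE 0.39, adjusted p = 0.0397). Usp17le had 30 and 75 reads against 20 and 34 (1.22, SE 0.47, adjusted p = 0.189), and its groups overlapped.

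Summed over 5 Usp17l genes, the level was 7.91 and 13.2 CPM with dox and 2.42 and 3.99 CPM without, or 3.30-fold. This sum was not planned, and no other family of the list was summed. Of the 45 genes of the list with reads, 10 had a negative log2 fold change, so this family does not stand for the list. The ratio within replicates was 3.26 (2.48 to 4.34) and 3.32 (2.64 to 4.20), and the second library held 1.67 times the first with dox and 1.64 times without. The sums over Zscan4 and Usp17l thus both gave like ratios in the 2 replicates and were both higher in the second library of each group. Pif1, a DNA helicase that ES cells also express outside this state, was at 54.2 ± 5.41 CPM with dox and 57.3 ± 1.94 CPM without (SD, n = 2), with a log2 fold change of -0.08 (SE 0.12, edgeR adjusted p = 0.759).

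Of the 5 known activators upstream of these genes, all had a positive log2 fold change and none passed 0.01 in edgeR. At an unadjusted p under 0.05 in edgeR 4 of the 5 were higher, against 8.48% of all genes. Without overlap 4 lay higher, against 23.3% of all genes. Dppa2 was at 89.5 ± 20.6 CPM with dox and 60.5 ± 10.8 CPM without (log2 fold change 0.57, SE 0.16, edgeR adjusted p = 0.0794, DESeq2 adjusted p = 0.0354). Its partner Dppa4 had a log2 fold change of 0.33 (SE 0.11, edgeR adjusted p = 0.127), Nelfa, a subunit of the negative elongation factor, 0.23 (adjusted p = 0.199), and Tbx3, a T-box factor, 0.08 (adjusted p = 0.740). Trp53, the p53 gene, was at 1077 ± 22.8 CPM with dox and 812 ± 4.77 CPM without (log2 fold change 0.41, edgeR adjusted p = 0.0211), and it rose in DESeq2 (adjusted p = 0.000735). The median log2 fold change of the 5 was 0.33, beside 1.84 for the 2C-like genes.

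Of 26 repressors of the state, 11 had a positive and 15 a negative log2 fold change, with a median of -0.02. At an unadjusted p under 0.05 in edgeR 1 was higher and 3 lower, against 1699 and 1867 of all 20044 genes. None of the 26 passed 0.01 in edgeR. DESeq2 called a pair of them, in opposite directions. Trim28, the KAP1 corepressor of retroelements, was higher with dox (2398 ± 15.6 against 1878 ± 57.3 CPM, log2 fold change 0.35, DESeq2 adjusted p = 0.00472, edgeR adjusted p = 0.0296). Smchd1, a chromatin protein of X inactivation and gene clusters, was lower (90.5 ± 4.34 against 124.6 ± 3.35 CPM, log2 fold change -0.46, DESeq2 adjusted p = 0.00449, edgeR adjusted p = 0.0309). Ctcf, whose count holds both endogenous and any matching transgene reads, was at 328 ± 1.56 CPM with dox and 299.8 ± 6.44 CPM without (log2 fold change 0.13, edgeR adjusted p = 0.475).

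A list of 9 genes was taken for telomere maintenance and meiotic recombination, processes in which Zscan4 is known to act. Of these, 3 had a positive and 6 a negative log2 fold change, with a median of -0.17. The list also holds Tet2, a DNA demethylation enzyme, whose log2 fold change (-0.17) is this median. At an unadjusted p under 0.05 in edgeR 1 of the 9 was higher and 3 lower, against 1699 and 1867 of all 20044 genes. None of the 9 passed 0.01 in edgeR, and 1 did in DESeq2. This was Smc1b, a cohesin subunit of meiosis, which was lower with dox at 360 and 342 reads against 699 and 752 (log2 fold change -0.77, DESeq2 adjusted p = 0.00740, edgeR adjusted p = 0.0354). Spo11 and Dmc1 make and repair the breaks of meiosis. Spo11, with 4 and 3 reads with dox and 9 and 3 without, had a log2 fold change of -0.45 (SE 0.89, edgeR adjusted p = 0.828). Dmc1, with 198 and 206 reads against 395 and 302, had one of -0.49 (SE 0.19, edgeR adjusted p = 0.188). Tert, the telomerase reverse transcriptase, had one of -0.09 (adjusted p = 0.775).

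**Figure D4:**
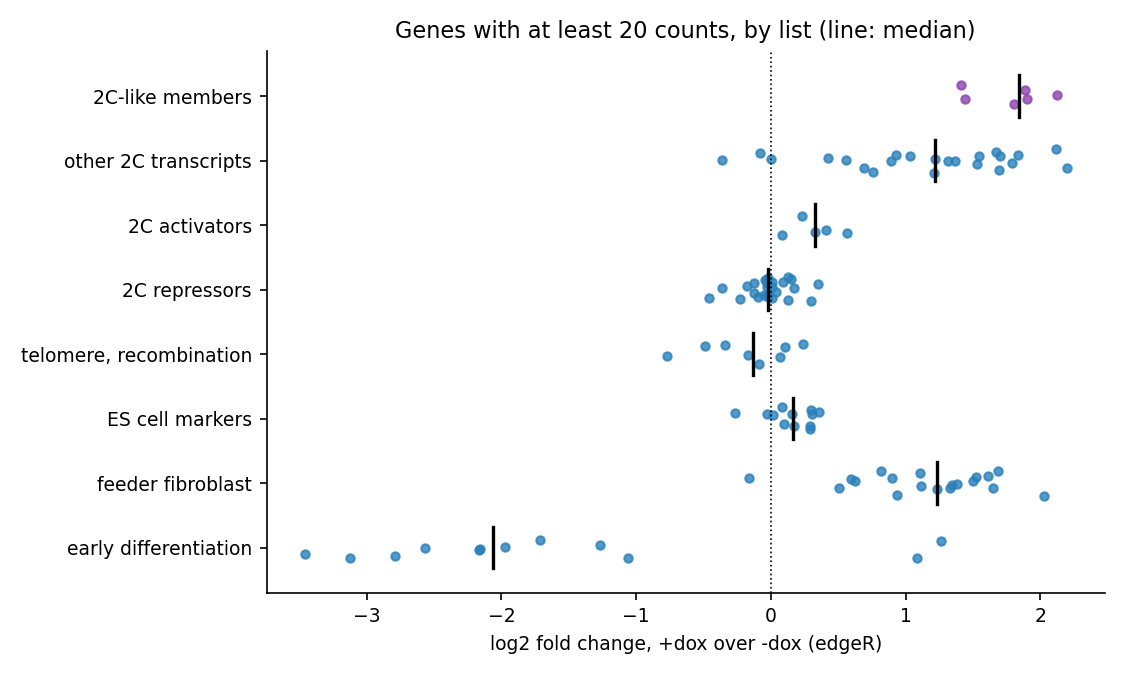
Each point is the edgeR log2 fold change (+dox over −dox) of 1 gene with at least 20 reads over the 4 libraries, by list, with a black line at the list's median and a dotted line at 0. The 2C-like genes all lie above 0 with a median of 1.84, the repressors scatter around 0, and the early differentiation markers lie mostly below 0.

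Markers of other cells moved between the groups as well. Of 20 feeder fibroblast markers, such as Col1a1 and Thy1, 19 had a positive log2 fold change, with a median of 1.28. At an unadjusted p under 0.05 in edgeR 14 were higher, against 8.48% of all genes. None of the 20 passed 0.01 in edgeR, and none was at 0 in all libraries. Their summed level was 2032 and 787 CPM with dox and 713 and 716 CPM without, so 1 library, the first +dox replicate, stood apart. The Zscan4 sum was highest in the other +dox library (5.56 CPM), where the feeder sum was 787 CPM. Gene by gene, 16 of the 20 feeder markers were higher with dox in both replicates, against 6109 of all 20044 genes. The median log2 ratio of the 20 was 1.49 within replicate 1 and 0.40 within replicate 2. For the 6 members with reads the same median was 1.53 and 1.43. The 12 ES cell markers had a median of 0.16, with 10 positive and none past 0.01. At an unadjusted p under 0.05 in edgeR 5 of the 12 were higher and 1 lower, against 1699 and 1867 of all 20044 genes. Without overlap 5 lay higher and 1 lower, against 4665 and 4756 of all genes.

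Of 12 early differentiation markers, 1 rose and 7 fell in edgeR, and their summed level was 73.5 and 76.8 CPM with dox and 184 and 213 CPM without. The primitive streak and endoderm genes T, Mixl1, Eomes, Foxa2, Sox17 and Gata6 fell, with log2 fold changes from -3.46 for Mixl1 to -1.71 for Eomes, and so did Fgf5, a marker of the epiblast (-1.97, adjusted p = 0.00290). Pax6, a neural gene, rose (1.09, adjusted p = 0.00573). Gsc and Gata4, not called in this edgeR test, were lower in DESeq2 (adjusted p = 0.00123 and 0.00373). None of the 12 was called under edgeR's option for small-count deviances or when 1 −dox library was left out. The part of feeder and differentiating cells in the levels of the 2C-like genes was not tested.

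**Figure D5:**
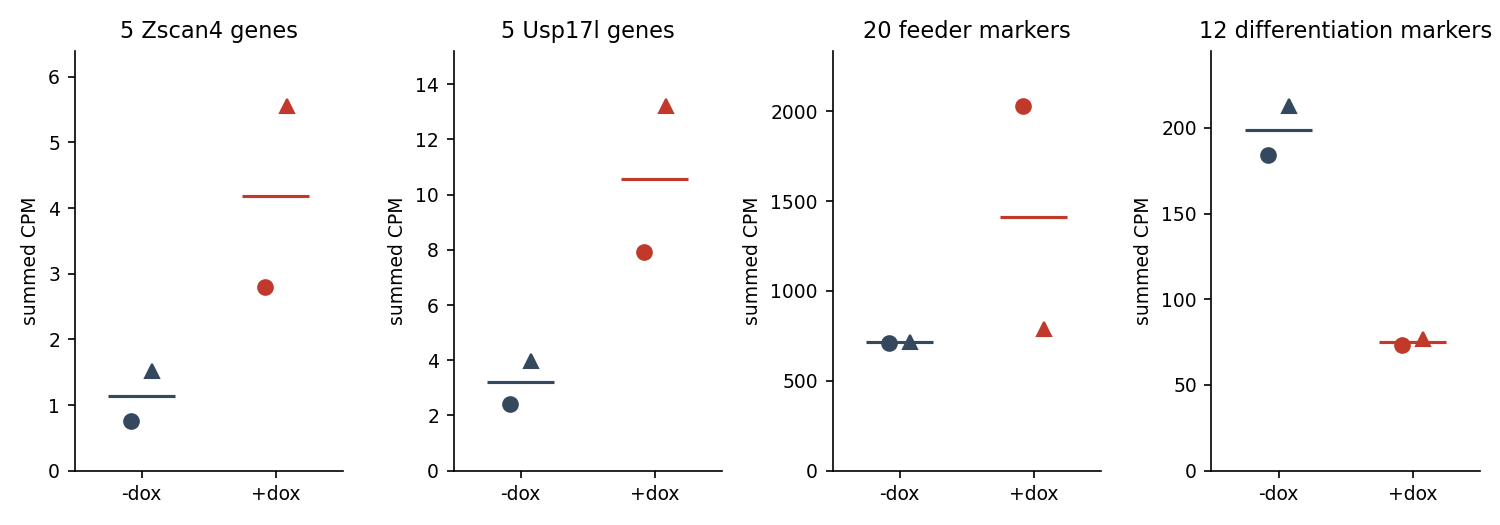
Summed CPM of 5 Zscan4 genes, 5 Usp17l genes, 20 feeder markers and 12 early differentiation markers in each library, with −dox on the left and +dox on the right of each panel (circles replicate 1, triangles replicate 2, line at the mean). Zscan4 and Usp17l are highest in the second +dox library, feeder markers in the first (2032 CPM), and differentiation markers in the −dox libraries (184 and 213 CPM).

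No tested neighbour of the 2C-like genes passed the threshold. The tables hold no other tested gene inside the Zscan4 cluster. Among the 5 tested genes on each side, at 64.1 to 4027 kb, 5 of 10 had a positive log2 fold change, with a median log2 fold change of 0.01, and 0 passed in edgeR. The range, -2.20 to 2.45, was set by genes with 1 read, and the well-counted zinc finger genes nearest on either side were Zik1 (-0.10, adjusted p = 0.788) and Zfp551 (-0.40, adjusted p = 0.409). Around Zfp352, at 524 to 4368 kb, 6 of 10 were positive, from -0.16 to 0.63 with a median of 0.15, and none passed.

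The genes whose pattern over the 4 libraries was most like that of Zfp352, by the root mean square difference of centred log2 CPM among 13910 genes with at least 1 CPM, were Nfia (0.0661), Cyp2b23 (0.0899), Neurog3 (0.120), Mlana (0.121) and Tfap2a (0.136). Nfia and Tfap2a encode transcription factors of development, Neurog3 a factor of endocrine progenitors, Mlana a melanosome protein and Cyp2b23 a cytochrome P450. The same measure gave 0.162 for Zscan4b, 0.290 for Zscan4c, 0.335 for Zscan4a, 0.377 for Zscan4d and 0.533 for Zscan4f. The Zscan4 genes were not among the candidates, and each had a mean below 1 CPM. Over 4 libraries such likeness describes the values only.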

How the data were processed

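Poly(A) RNA of 4 libraries was sequenced as 50-nt paired ends with a directional kit. The authors used cutadapt for trimming, TopHat2 for alignment to mm9 and HOMER to count unique exonic reads after PCR duplicates had been discarded. The deposited values are raw counts per gene, in 1 table per replicate number. Tool versions and the use of strand are not given in the sources used here. The ChIP-seq and Hi-C samples were not analysed here.

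Tables were joined by gene symbol (547 genes had a different transcript in the tables), and genes with at least 1 count in 1 library (20044) were tested with TMM and edgeR 4.0.16 (R 4.3.3, quasi-likelihood, default settings, two-sided, no replicate block), with Benjamini-Hochberg adjustment over all genes and a threshold of 0.01. Standard errors come from the test statistic. CPM are TMM-scaled, with a prior count of 2 where log2 CPM are compared. Intervals are exact (Clopper-Pearson, 95%) and, like the limit of 3 counts, cover counting error only. The study describes 2 biological replicates per group, and the p-values measure the spread between these samples only. With 2 against 2 no permutation test was used. Unique windows were counted in NCBIM37 on both strands.

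Alternatives were DESeq2 1.42.0, adjusted deviances, DESeq2 size factors or total counts in edgeR, filterByExpr, a threshold of 0.05, a replicate block, leaving out each library, genes with 1 transcript identifier only, and a prior count of 0.5. The members and gene lists were chosen with earlier results of these data known. Named are all members, listed genes with an adjusted p under 0.01 in edgeR or DESeq2, the 5 other 2C transcripts with the highest mean CPM, the activators, Ctcf, and the 5 genes with the pattern most like that of the best counted member. Other genes named (Dux, Usp17ld, Sp110, Trim43a, Gm2022, Gm2016, B020004J07Rik, Gm13119, Obox6, Spo11, Dmc1, Tert, Tet2, Zik1, Zfp551 and 4933409K07Rik) and the motif TAATCC were added after their values were seen. Pou5f1, Nanog, Col1a1 and Thy1 are named as examples of their marker lists. The sum over Usp17l genes was not planned.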

Additional observations from a re-analysis of the deposited data

How the results depend on the processing

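All 6 genes with reads kept a positive log2 fold change under each alternative that could be run. The number of them past the threshold was 0 in the reported test and 0 to 3 when each library was left out, the 3 being Zscan4a, Zscan4c and Zscan4d without the first +dox replicate. The filterByExpr filter left out Zscan4b and Zscan4f. Leaving out each library gave 0 to 5 other 2C transcripts, 0 to 4 activators and repressors, 0 to 1 telomere and recombination genes, 0 to 3 ES cell markers, 0 to 17 feeder markers, 0 to 12 early differentiation markers and 0 to 992 of all genes, beside 120 in the reported test. Without the first +dox replicate 992 genes were called, without the second 877, and without either −dox replicate 0. A threshold of 0.05 gave 4 other 2C transcripts, 3 activators and repressors, 1 telomere and recombination gene, 8 feeder markers and 573 genes in all. DESeq2 gave 3 activators and repressors, 1 telomere and recombination gene and 375 genes in all. Adjusted deviances gave 0 early differentiation markers and 0 genes in all, and filterByExpr gave 2 and 11. With total counts in place of TMM the Zscan4 sum was 3.58-fold higher with dox and the Usp17l sum 3.20-fold. For these shifts the cause was not tested. The adjusted p of Zfp352 ran from 0.0183 to 0.670 over its alternatives, and that of Zscan4c from 0.00187 to 0.670. Zscan4b and Zscan4f, with at most 10 reads in any library, are the members most limited by depth.

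The replicate numbers are shared by the groups, and deviations of same-numbered libraries correlated across 13911 genes at 0.196, which with 2 pairs does not show that the numbers pair the samples. With the replicate block 0 of the 6 genes were called (adjusted p of 0.0106 for Zscan4d, 0.0167 for Zscan4c, 0.0237 for Zfp352 and 0.0300 for Zscan4a), along with 3 other 2C transcripts (Usp17la, adjusted p = 0.00738, Usp17lb, 0.000570, and Usp17lc, 0.000670), all 12 early differentiation markers, 4 activators and repressors, 1 telomere and recombination gene, 4 ES cell markers, 13 feeder markers and 786 genes in all.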

Other observations

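Among the 16161 genes with at least 20 reads over the 4 libraries, a limit chosen after the values were seen, the log2 fold change of Zscan4a ranked 39th from the highest, that of Zscan4d 68th, Zscan4c 70th, Zscan4b 89th and Zfp352 235th, with Zscan4f just above Zfp352. Of the 23 genes of the other 2C list in this set, Usp17ld ranked above them (29th), and 8 ranked between Zscan4a and Zfp352, namely Usp17lb (40th), Usp17lc (78th), Trim43a (94th), Gm2022 (116th), Sp110 (120th), Usp17la (125th), B020004J07Rik (174th) and Gm2016 (181st). The remaining genes ranked lower, down to Gm13119 (8093rd), Pif1 (9783rd) and Obox6 (13524th). These ranks take no account of standard errors, which are large for genes with few reads. Zscan4b and Zscan4f, with 20 reads each over the 4 libraries, had SE of 0.93 and 1.09. Sp110, a nuclear body protein, had 31 and 38 reads with dox and 15 and 11 without (log2 fold change 1.70, edgeR adjusted p = 0.0499), and Trim43a, of a family expressed in cleavage embryos, had 12 and 17 against 4 and 6 (1.79, adjusted p = 0.161).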
